A study of Mus musculus with 2 samples.

Results

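The 8 keratins described here, Krt7, Krt8, Krt18, Krt19, Krt17, Krt20, Krt23 and Krt80, were chosen by symbol among the 55361 features of the expression tables, which held 54 annotated keratin genes in all. Their RNA was followed in 2 single-cell libraries of mouse pancreatic ductal adenocarcinoma, namely a whole-tumour library and a library of cells whose surface CD9, a tetraspanin membrane protein, was high in the sort (CD9hi). Both came from the KPFRR model, in which Flp recombinase made under the Pdx1 promoter (Pdx1-Flp) acts in pancreatic cells. Both groups also carried Trp53frt/frt, a Trp53 gene deleted by Flp. Rosa26FSF-creER, an inducible Cre that Flp switches on, and the membrane Tomato to membrane GFP reporter Rosa26mTmG were also part of the genotype of both groups. Live cells were gated on GFP or on CD9 per the labels' protocols, and the series text speaks of GFP-positive cells, but how the gates were combined, the ages, and the number of mice behind a library were not given in the sources used here. Each group had 1 library, so the intervals below are 95% intervals of counting error only, and no test between groups was possible.

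Keratins are the intermediate filament proteins of epithelial cells. A filament is built from pairs of 1 type I and 1 type II chain; Krt8 and Krt18 are the pair of simple epithelia, and Krt7 and Krt19 are added in ducts, so that all of them serve as markers of the pancreatic duct. Tumour cells that pass into a mesenchymal state (epithelial to mesenchymal transition) gain vimentin, the filament protein made from Vim, and lose epithelial proteins to differing degrees. KRT17 is used in human pancreatic cancer as a marker of the basal-like tumour subtype, and KRT20 is known from gastrointestinal epithelia.

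Among the members, Krt8 (ENSMUSG00000049382), Krt7 (ENSMUSG00000023039) and Krt80 (ENSMUSG00000037185) are type II chains, and Krt18 (ENSMUSG00000023043), Krt19 (ENSMUSG00000020911), Krt17 (ENSMUSG00000035557), Krt20 (ENSMUSG00000035775) and Krt23 (ENSMUSG00000006777) are type I chains. In the RefSeq gene order, Krt8 and Krt18 were adjacent coding genes on chromosome 15, which also holds the adjacent pair Krt80 and Krt7. Krt20 and Krt23 were adjacent on chromosome 11, which also holds Krt17 and Krt19. The RefSeq promoter table (GRCm38.p6, another build than that of the expression tables) matched 5 of the 8 members, Krt7, Krt8, Krt18, Krt20 and Krt23; Krt19, Krt17 and Krt80 had no entry. The 250 bases before the start of 4 of them are shown, for the chains whose levels along Vim are compared below and for Krt20 as the contrast. Capitals mark exact matches, on either strand, to 4 motifs: TATAAA (the TATA box), CACCTG (an E-box form bound by the EMT repressors of the Snail and Zeb families), TGACTCA (the AP-1 site) and GGGCGG (the GC box). The regions are chr15:102004343-102004592 on the minus strand for Krt8, chr15:102027966-102028215 on the plus strand for Krt18, chr15:101412153-101412402 on the plus strand for Krt7 and chr11:99438154-99438403 on the minus strand for Krt20.
Krt8: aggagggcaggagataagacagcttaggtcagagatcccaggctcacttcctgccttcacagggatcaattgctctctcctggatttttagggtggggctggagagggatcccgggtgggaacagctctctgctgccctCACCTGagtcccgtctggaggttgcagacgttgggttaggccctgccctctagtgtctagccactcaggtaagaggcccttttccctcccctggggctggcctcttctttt
Krt18: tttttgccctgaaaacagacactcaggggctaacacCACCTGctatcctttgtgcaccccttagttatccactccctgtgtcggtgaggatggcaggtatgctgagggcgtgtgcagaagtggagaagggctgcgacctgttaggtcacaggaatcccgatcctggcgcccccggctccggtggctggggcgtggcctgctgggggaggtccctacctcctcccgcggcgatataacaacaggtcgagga
Krt7: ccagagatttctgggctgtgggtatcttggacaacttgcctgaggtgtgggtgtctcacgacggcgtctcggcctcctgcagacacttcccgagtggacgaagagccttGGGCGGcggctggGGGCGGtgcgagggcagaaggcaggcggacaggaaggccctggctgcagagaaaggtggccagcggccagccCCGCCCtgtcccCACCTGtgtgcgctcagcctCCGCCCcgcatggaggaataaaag
Krt20: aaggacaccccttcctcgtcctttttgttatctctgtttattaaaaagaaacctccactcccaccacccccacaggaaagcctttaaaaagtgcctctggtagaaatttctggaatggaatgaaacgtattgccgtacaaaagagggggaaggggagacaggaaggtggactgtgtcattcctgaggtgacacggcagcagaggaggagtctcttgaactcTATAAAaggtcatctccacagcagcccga

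CACCTG was present in 4 of the 5 matched windows (Krt8, Krt18, Krt7 and Krt23), beside 17.2% of the 32851 promoter windows of this length in the table. Reading from the gene start, it began at position -111 in Krt8, -214 in Krt18, -44 in Krt7 and -232 in Krt23. TATAAA occurred in Krt20, at position -29, and in 12.4% of all windows. GGGCGG or its reverse occurred at 4 places in Krt7 and in 32.7% of all windows, and TGACTCA was in none of the 5 and in 4.46% of all. A match of letters is no evidence of binding.

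Levels were compared as CPM (UMIs of a gene per 1000000 UMIs) of summed unique molecular identifiers (UMIs), which count transcript 3′ ends, 1 per molecule, so that levels of different genes need no correction for length. Krt18 led the keratins in both libraries, at 3960 CPM (whole tumour) and 3063 CPM (CD9hi). Krt8, its partner, followed at 2847 and 1759 CPM. The ductal chain Krt7 stood at 1582 and 912 CPM, and the other ductal chain, Krt19, at 1292 and 354 CPM. These 4 keratins stood well above the others. Krt17, the basal-type chain, had 68.1 CPM in whole tumour against 14.6 CPM in CD9hi. Krt23 had 55.9 and 38.7 CPM, and Krt20 had 44.9 and 39.2 CPM. Krt80, a type II chain of several epithelia, was near the lower limit of measurement, at 6.07 and 3.76 CPM. The order of levels was therefore Krt18, Krt8, Krt7, Krt19, Krt17, Krt23, Krt20 and Krt80 in the whole tumour, whereas in CD9hi Krt17 fell behind Krt20 and Krt23. The only neighbours whose counting intervals overlapped were Krt20 and Krt23 in CD9hi.

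The libraries behind these values held 2550 and 5092 kept barcodes (500 or more genes, 1000 or more UMIs, no more than 20% of UMIs mitochondrial), with medians of 17686 and 21791.5 UMIs. The 8 keratins made up 0.986% and 0.618% of all UMIs. All 10 listed ductal markers were at 5 CPM or more in both libraries, and Cd9 itself stood at 1273 CPM (whole tumour) and 2367 CPM (CD9hi). The GFP reporter of the gate had 0 UMIs in both. The libraries shared 2 barcode sequences. Acinar genes met a gate of 50000 CPM in 281 barcodes (11%) of the whole tumour and 4 of CD9hi, and fibroblast genes met a gate of 1000 CPM in 148 barcodes (2.91%) of CD9hi and 2 of the whole tumour. Barcodes low in the nuclear RNA Malat1 (under 1000 CPM) were 8.47% and 12.0%. The annotated pseudogene Krt8-ps took 70 and 61 UMIs over all, and counts of Krt8, and of the related chains Krt14, Krt16 and Krt17, are uncertain to the extent that reads were shared with near-identical copies.

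Of the 7 keratins measured (mean of the groups compared at least 5 CPM), 4 were at least 1.5-fold lower in CD9hi than in the whole tumour and none was as much higher; 13.4% of all 9760 measured genes were as much lower and 17.1% as much higher. Krt17 was 4.67-fold lower (log2 ratio -2.22, 95% counting interval -2.31 to -2.14). Krt19 was 3.65-fold lower (log2 -1.87, -1.89 to -1.85). Krt7 (log2 -0.79) and Krt8 (log2 -0.70) were lower by less. The remaining chains differed by less than 1.5-fold, with log2 ratios of -0.53 for Krt23, -0.37 for Krt18 and -0.20 for Krt20, beside a median of 0.13 over all measured genes. Krt80 lay under the limit of measurement. Vim itself was higher in CD9hi by 2.09 on the log2 scale, and with 1 library a group the sort, the state of the cells and the library itself cannot be told apart.

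Cells were next divided by their own Vim level, from under 250 CPM, typical of epithelial cells, to at least 10000 CPM, and bins of under 20 cells were not read. In CD9hi, Krt8 and Krt18 were lower in Vim-high cells but kept more of their level than Krt7, Krt19, Krt17, Krt20 and Krt23. Krt18 went from 4955 CPM in the 352 cells under 250 CPM of Vim to 3188 CPM at 1000 to 2500 and 2255 CPM in the 229 cells at 10000 or more. Krt8 went from 3345 CPM to 1695 CPM over the first of these steps and was then level, with 1570, 1633 and 1664 CPM in the top 3 bins. Krt7 went down at every step, from 2963 CPM through 2538, 1330, 829 and 505 to 206 CPM. Krt19 went from 1667 through 1198 to 440 CPM at 1000 to 2500 CPM of Vim and on through 237 and 185 to 174 CPM.

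**Figure D1:**
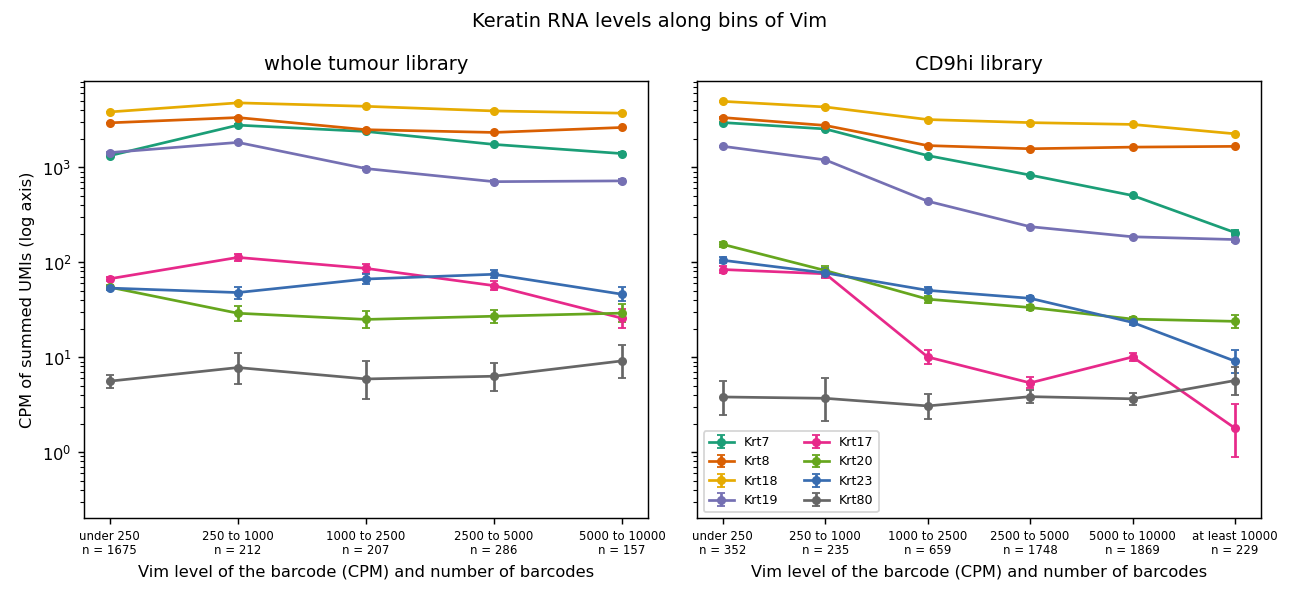
CPM of summed UMIs (vertical, log axis) of the 8 keratins in bins of Vim level (horizontal, CPM, with the number of barcodes n), in the whole-tumour library (left) and the CD9hi library (right); bars are 95% counting intervals. In CD9hi, Krt7 goes down over every bin to 206 CPM while Krt8 ends at 1664 CPM, and in the whole tumour the 4 abundant chains stay at 706 CPM or more.

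Of the low keratins in CD9hi, Krt17, Krt20 and Krt23 were also lower in the highest Vim bin than in the lowest. Krt17 had 83.9 CPM under 250 CPM of Vim, 75.7 CPM in the next bin and 10.1 CPM in the third. No other member had as large a step, by ratio, between neighbouring bins. Krt17 did not go down at every step, with 5.36, 10.1 and 1.79 CPM in the bins from 2500 CPM of Vim up. Krt20 went from 154 CPM to 23.9 CPM, and Krt23 from 105 CPM to 9.09 CPM, over the whole range. Krt80 stayed between 3.07 and 5.68 CPM in all 6 bins.

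The same bins of the whole tumour held a narrower range. Krt18 was at 3835 CPM in the lowest bin (1675 cells), 4778 CPM in the next and 3721 CPM at 5000 to 10000 CPM of Vim (157 cells). Krt8 was at 2944, 3345 and 2631 CPM in these bins. Krt7 rose from 1328 to 2783 CPM and then went down to 1396 CPM, and Krt19 went from 1430 through 1831 to 720 CPM. Of the 281 barcodes that met the acinar gate, 279 had Vim under 1000 CPM, a range that spans the lowest bin and the next. Leaving out gated barcodes of every type took the lowest bin from 1675 to 1365 cells and the next from 212 to 206. In the acinar-gated barcodes Krt18 was at 866 CPM, Krt8 at 712 CPM, Krt19 at 166 CPM and Krt7 at 147 CPM. Without gated barcodes, the lowest bin had 4397 CPM of Krt18, 3382 CPM of Krt8, 1607 CPM of Krt7 and 1729 CPM of Krt19, so the peak of Krt7 in the second bin was also present without them.

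Set against each other directly, cells with Vim at 5000 CPM or more (Vim-high) had lower levels of all 7 measured keratins by at least 1.5-fold than cells with Vim under 1000 CPM (Vim-low) in CD9hi, where 16.9% of all measured genes were as much lower; none was as much higher, beside 8.57% of genes. The largest ratios were those of Krt17 (80.7 against 9.10 CPM, log2 -3.15) and Krt19 (1485 against 184 CPM, log2 -3.01). Krt7 went from 2798 to 470 CPM (log2 -2.57, -2.60 to -2.55), Krt20 from 126 to 25.04 CPM (log2 -2.33) and Krt23 from 94.2 to 21.6 CPM (log2 -2.13). Krt8 went from 3119 to 1637 CPM (log2 -0.93, -0.95 to -0.91) and Krt18 from 4710 to 2765 CPM (log2 -0.77, -0.78 to -0.75). The intervals of Krt8 and Krt18 lay apart from those of every other measured keratin. Whole-tumour cells gave 3 of 8 keratins at least 1.5-fold lower in the 170 Vim-high than in the 1887 Vim-low cells, with 15.7% of all measured genes as much lower, and none as much higher, with 20.7% of genes as much higher. These were Krt17 (72.3 against 25.3 CPM, log2 -1.505), Krt19 (1476 against 739 CPM, log2 -0.997) and Krt20 (51.7 against 26.8 CPM, log2 -0.94). The direction of Krt17 depended on the cuts. Its bins went from 67.1 CPM to 112.5 and 86.3 CPM before 56.7 and 25.7 CPM, and between the top and bottom 20% of Vim its log2 ratio was 0.88. Krt7, Krt8 and Krt18 differed by at most 0.18 on the log2 scale, with ratios of -0.14, -0.18 and -0.08. Krt23, unlike in CD9hi, was also close, at 43.9 against 52.8 CPM (log2 -0.26, -0.52 to -0.02). Its whole-tumour bins were 53.5, 48.0, 66.6, 74.8 and 46.1 CPM. Krt80 had a log2 ratio of 0.52 with an interval of -0.14 to 1.08, so its direction was not resolved at 27 UMIs.

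**Figure D2:**
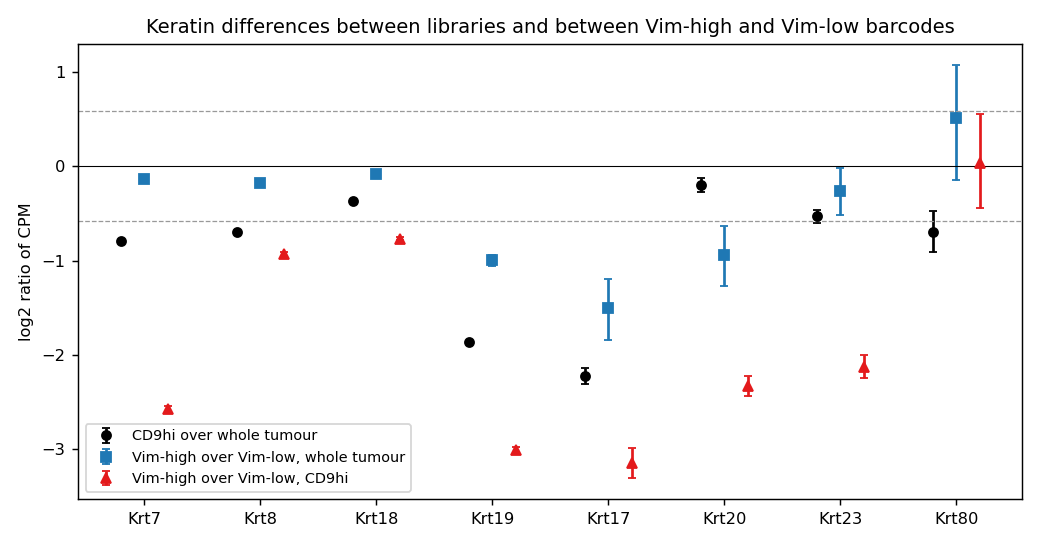
Log2 ratio of CPM (vertical) of each keratin (horizontal) for CD9hi over whole tumour (circles) and for Vim-high over Vim-low cells in the whole tumour (squares) and in CD9hi (triangles); bars are 95% counting intervals and dashed lines mark 1.5-fold. In CD9hi Krt17 (-3.15) and Krt19 (-3.01) lie lowest while Krt8 (-0.93) and Krt18 (-0.77) lie closest to 0 among the measured chains.

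The make-up of keratin RNA shifted with Vim toward the simple pair. In CD9hi, Krt8 and Krt18 together held 62.5% of the UMIs of the 8 keratins in the lowest Vim bin and 90.3% in the highest. Whole-tumour cells held 69.8% in the lowest bin, 62.8% in the next and 74.0% at 5000 to 10000 CPM. The sum of the 8 keratins declined in CD9hi from 13278 to 4339 CPM over the same bins. Its whole-tumour values were 9717, 12933, 10426, 8872 and 8578 CPM. The pair itself stayed in a narrow proportion. Krt8 UMIs per Krt18 UMI were 0.719 in the whole tumour and 0.574 in CD9hi, and ranged over the CD9hi bins from 0.531 at 2500 to 5000 CPM of Vim to 0.738 at 10000 or more. All type II chains per type I chain came to 0.818 in the whole tumour and 0.762 in CD9hi. Krt7 UMIs per Krt8 UMI, by comparison, went from 0.886 in the lowest CD9hi bin to 0.124 in the highest.

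**Figure D3:**
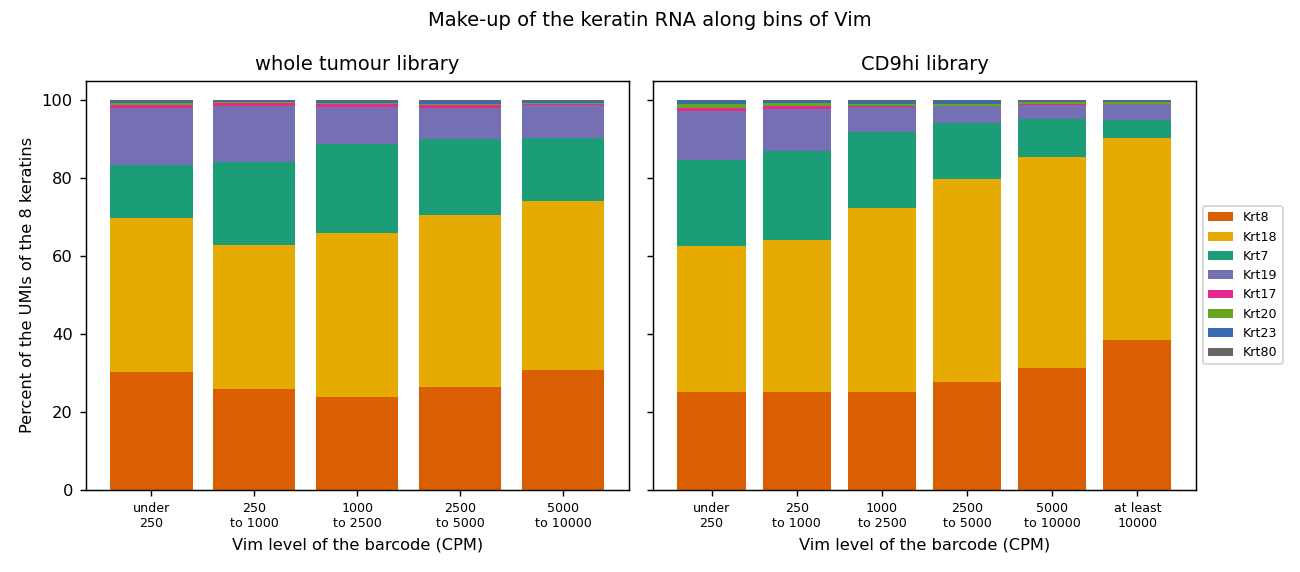
Percent of the UMIs of the 8 keratins taken by each of them (vertical, stacked bars) in bins of Vim level (horizontal, CPM), in the whole tumour (left) and CD9hi (right). The share of Krt8 and Krt18 together goes from 62.5% to 90.3% across the CD9hi bins.

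Detection per cell was highest for the simple pair and then for the ductal chains, as were the levels, while Krt17 ranked lower by detection than by level in the whole tumour. To compare cells of unequal depth, each was thinned to 5000 UMIs, which left out 165 shallower barcodes of the whole tumour and 114 of CD9hi. Krt18 was detected in 96.6% of whole-tumour and 94.9% of CD9hi cells (99.1% and 97.4% unthinned). Krt8 was detected in 94.7% and 90.6% (98.2% and 96.5% unthinned). Krt7 reached 81.5% and 56.7% (90.2% and 67.9% unthinned), and Krt19 76.7% and 40.6% (85.6% and 58.8% unthinned). The simple pair was thus near universal and the ductal chains were not. Krt23 was found in 17.2% and 13.3% of cells, Krt20 in 14.1% and 13.8%, Krt17 in 10.5% and 2.81%, and Krt80 in 3.27% and 1.51%. Cells in which none of the 8 keratins was found were 1.89% of the whole tumour and 2.75% of CD9hi. As a background, the 20 thinned CD9hi barcodes that met the immune gate, which should lack keratins, showed Krt18 in 20%, Krt7 in 15%, and Krt8 and Krt19 in 10% each (exact binomial interval of the last 2 values 1.23% to 31.7%), at a median of 15515.5 UMIs before thinning against 21976.5 for all CD9hi cells. The low keratins had 0 of 20 there, with an exact binomial upper limit of 16.8%.

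Among CD9hi cells with at least 10000 CPM of Vim, Krt18 was still detected in 87.3% and Krt8 in 86.0%, with both in 81.4%. Krt7 was detected in 23.1% and Krt19 in 31.7%, both inside the intervals of the immune-gated background (3.21% to 37.9% for Krt7) from few barcodes. By level, Krt19 was at 174 CPM in these cells against 18.4 CPM in the immune-gated barcodes, and Krt7 at 206 against 126 CPM, with counting intervals that did not overlap. The immune-gated levels rest on 6 UMIs of Krt19 and 41 of Krt7 in 24 barcodes before thinning, with medians of 0 CPM. Counting intervals do not cover such spread between barcodes, so these levels do not settle whether either chain was above background. In the lowest bin the 4 shares were 97.2%, 97.5%, 97.8% and 92.9%. The share of cells with Krt7 thus went down together with its level, while the simple pair remained in most cells. Within a class the cells also spread widely. In CD9hi Vim-high cells, Krt18 ran from 428 CPM at the 10th percentile to 5321 CPM at the 90th, and Krt7 from 0 to 1575 CPM. At least 500 CPM of Krt18 was present in 89.0% of these cells, of Krt8 in 77.6%, of Krt7 in 28.3% and of Krt19 in 11.8%.

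Markers of other mesenchymal cells moved with Vim in CD9hi, and the keratins were lower where they were high. The 10 listed fibroblast genes summed to 12.3 CPM in Vim-low and 195 CPM in Vim-high cells, with 6 of 10 at 5 CPM or more and Dpt under 1 CPM. Cells of the fibroblast gate (148, of which 87 were Vim-high) had 481 CPM of Krt18, 438 CPM of Krt8 and 22.3 CPM of Krt7. Krt8 was detected in 47.6% of them after thinning (39.1% to 56.1%), above the immune-gated background. Krt18, detected in 45.5% (37.1% to 54.0%), was not apart from that background (5.73% to 43.7%). By level, the immune-gated barcodes had 494 CPM of Krt18, and their 126 CPM of Krt7 was above that of the fibroblast gate. Of CD9hi cells with Vim at 2500 CPM or more, 953 had a UMI of Prrx1, a mesenchymal transcription factor, and 2893 had none. Krt18 was at 1626 CPM with and 3464 CPM without a Prrx1 UMI, Krt8 at 1117 and 1853 CPM, and Krt7 at 76.2 and 904 CPM. Krt7 was thus further apart between these cells than Krt8 or Krt18. The split used UMIs before thinning, so it also depends on the depth of a cell, which was not matched. In the whole tumour, 454 cells with Vim at 2500 CPM or more had no Prrx1 UMI. Their levels were 3860 CPM of Krt18, 2446 CPM of Krt8 and 1604 CPM of Krt7. Without any gated barcode, the highest Vim bin of CD9hi held 1756 CPM of Krt8, 2399 CPM of Krt18 and 225 CPM of Krt7. The part of cells with mesenchymal markers in the result was not tested. Of 7 mesothelial genes, Msln alone was above 5 CPM, at 324 CPM in Vim-high cells. Ptprc, an immune marker, was under 1 CPM in Vim-high cells of both libraries. The 10 macrophage or monocyte genes summed to 764 CPM in Vim-low cells of CD9hi, led by Lyz2 (348 CPM) and C1qa (106 CPM). They summed to 50.1 CPM in its Vim-high cells, led by Cd14 (20.7 CPM) and Lyz2 (12.1 CPM). The part of immune RNA in the Vim ratios was not tested.

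Among Vim-high cells, the 4 abundant keratins differed by whether Epcam was kept. Cells were divided at 1000 CPM of Epcam, a surface protein of epithelia, and at 2500 CPM of Vim. Cells high in both made up 7.41% of the whole tumour (189 cells) and 18.9% of CD9hi (960 cells), and Epcam-low, Vim-high cells 10.5% (267) and 56.7% (2886). Whole-tumour cells high in both had 2984 CPM of Krt7, above the 1942 CPM of Epcam-high, Vim-low cells (log2 0.62) and the 663 CPM of Epcam-low, Vim-high cells. Krt8 (3921 CPM) and Krt18 (5003 CPM) were also highest there, against 3463 and 4648 CPM in Epcam-high, Vim-low cells. In CD9hi the order was another. Cells high in both had 1819 CPM of Krt7 against 2879 CPM in Epcam-high, Vim-low cells (log2 -0.66) and 276 CPM in Epcam-low, Vim-high cells (log2 2.72 between the Vim-high classes). For Krt8 the 3 values were 2689, 3118 and 1288 CPM, and for Krt18 they were 4490, 4940 and 2365 CPM. Krt19 was further below the level of Epcam-high, Vim-low cells than Krt7 was in CD9hi cells high in both, at 501 against 1297 CPM (log2 -1.37), and stood at 1452 against 1741 CPM (log2 -0.26) in the whole tumour.

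**Figure D4:**
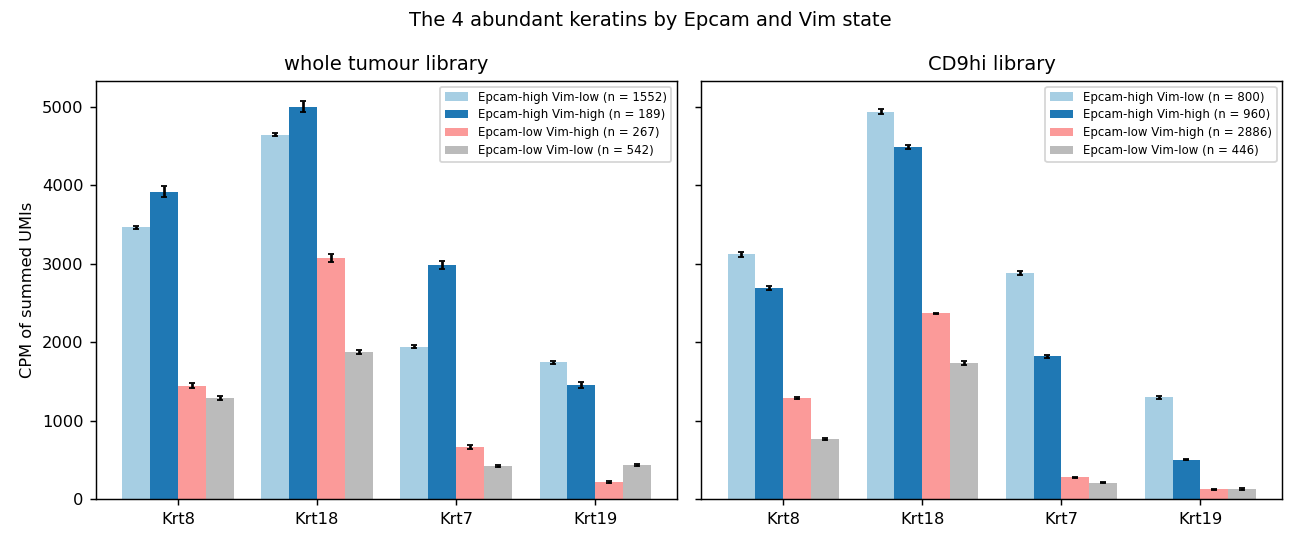
CPM of summed UMIs (vertical, from 0) of the 4 abundant keratins (horizontal) in cells divided at 1000 CPM of Epcam and 2500 CPM of Vim, in the whole tumour (left) and CD9hi (right), with the number of barcodes n of each state; bars are 95% counting intervals. In Epcam-high, Vim-high cells Krt7 is at 2984 CPM (whole tumour) and 1819 CPM (CD9hi), and in Epcam-low, Vim-high cells at 663 and 276 CPM.

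Within a state the difference between the libraries varied by state and by chain. In Epcam-high, Vim-low cells, Krt7 was higher in CD9hi than in the whole tumour (2879 against 1942 CPM, log2 0.57), as was Krt20 (110.5 against 53.1 CPM, log2 1.06), and Krt23 was at 89.7 against 60.5 CPM (log2 0.57). Krt8 and Krt18 were close there, with log2 ratios of -0.15 and 0.09. In Epcam-low cells Krt7 was lower in CD9hi, with log2 ratios of -1.003 in Vim-low and -1.26 in Vim-high cells. Krt20 had ratios of -1.19 and -0.32 there. Krt23 had -1.74 in the Vim-high cells and -0.13 (-0.37 to 0.12) in the Vim-low cells. Without gated barcodes the Epcam-low, Vim-low ratios were -1.86 for Krt7 and -0.99 for Krt23. Krt19 stayed lower in CD9hi in all 4 states, by 0.42 on the log2 scale in Epcam-high, Vim-low cells and by 1.53 in cells high in both. Krt17 too stayed lower, with 61.2 against 93.7 CPM in Epcam-high, Vim-low cells (log2 -0.61) and 23.8 against 91.4 CPM in cells high in both (log2 -1.94), and with a log2 ratio of -2.38 in Epcam-low, Vim-high cells. The cuts are ranges on a continuum. Within 10% of the Vim cut lay 64 whole-tumour and 309 CD9hi cells, and within 10% of the Epcam cut 134 and 229.

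Basal-like tumour cells were approached with the 15 non-keratin genes of a published human basal-like list, summed per cell among ungated cells with Vim under 2500 CPM, and the cells in the top 25% of the sum were compared with those in the bottom 25%. Areg, an EGF receptor ligand, carried 51.7% of the list's UMIs in the whole tumour and 57.7% in CD9hi, and Trp63, the squamous master regulator, had 3 UMIs in Vim-low cells of the whole tumour, 1 UMI in Vim-high cells of CD9hi and 0 in the other 2 classes. Krt5, the basal-layer keratin, had 1 UMI in each of 2 classes. Outside the 8 members, the stratified-type keratin Krt14 was at 47.7 CPM in top against 3.25 CPM in bottom cells of CD9hi (log2 3.84). Krt16 was at 29.2 against 3.08 CPM there (log2 3.21), and the bottom cells held 19 and 18 UMIs of the pair. In the whole tumour Krt14 was at 8.80 against 1.78 CPM (12 UMIs in the bottom cells) and Krt16 at 32.9 against 35.4 CPM. Of 8 keratins in the whole tumour, 4 were at least 1.5-fold higher in the top cells (10.6% of all measured genes were). Krt23 was at 103.5 against 36.6 CPM (log2 1.499), Krt7 at 2151 against 873 CPM (log2 1.30), Krt20 at 94.4 against 43.0 CPM (log2 1.13) and Krt19 at 1864 against 1023.5 CPM (log2 0.86). Krt17, the human basal-like marker, was at 49.6 against 37.8 CPM (log2 0.39, 0.16 to 0.62). Between these whole-tumour cells Vim was at 415 against 97.5 CPM and Epcam at 2623 against 1853 CPM. Their part in the ratios was not tested. In CD9hi all 7 measured keratins were at least 1.5-fold higher (16.3% of all measured genes were), but Epcam was at 3424 against 1250 CPM between the same cells. When the ranking was made among Epcam-high cells alone, an alternative chosen after seeing the data, 2 remained in CD9hi (5.23% of all genes): Krt20 at 155 against 78.9 CPM (log2 0.97) and Krt23 at 130 against 69.8 CPM (log2 0.90). Krt17 there was at 51.0 against 51.6 CPM. Among Epcam-high whole-tumour cells the same 4 chains passed (8.98% of all genes), and Krt17 was at 52.0 against 51.1 CPM.

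Cells were ranked in the same way by the matching human classical list. Its 18 genes, 17 of them in the tables, include the gastric trefoil factors Tff1 and Tff2 and the gastric protease Ctse. Cells high in the basal list were not low in these genes as a set. Between basal-list top and bottom cells, their median log2 ratio was 0.41 in the whole tumour (Spink4 -0.73 to Tff1 2.60). In CD9hi it was 0.52 (Agr2 -1.69 to Tff1 3.07), and all measured genes had -0.0051 and 0.10. By the classical list, the basal-list gene Ly6d had log2 5.00 in the whole tumour, where the basal list's median was -0.28. Ranked by the classical list in the whole tumour, Krt17 was at 16.6 CPM in the top 25% and 173 CPM in the bottom 25% (10.4-fold lower, log2 -3.37, -3.63 to -3.13). Krt20 moved the other way, at 110 against 23.6 CPM (log2 2.21), and Krt23 with it, at 84.3 against 48.3 CPM (log2 0.80); these 2 of 8 were at least 1.5-fold higher, as were 13.1% of all measured genes. Krt7 (1175 against 2424 CPM, log2 -1.04) and Krt80 (4.16 against 9.98 CPM, log2 -1.25) were lower together with Krt17, as were 24.7% of all genes. Krt8, Krt18 and Krt19 lay within 0.20 on the log2 scale. Between the same cells Vim was at 28.2 against 622 CPM and Epcam at 1858 against 2769 CPM, and their part in these ratios was not tested. In Epcam-high whole-tumour cells the same 3 chains, Krt7, Krt17 and Krt80, were lower (23.7% of all genes). In CD9hi all 7 measured keratins were higher in the top cells (22.9% of all genes were) and none was lower (16.4% of all genes), beside Epcam at 3641 against 376 CPM. Among Epcam-high CD9hi cells alone, 2 were at least 1.5-fold higher (11.2% of all genes), Krt23 at 156 against 43.2 CPM (log2 1.85) and Krt20 at 192 against 68.6 CPM (log2 1.48), none was lower (8.32%), and Krt17 was at 51.4 against 46.0 CPM (log2 0.16, -0.13 to 0.45). The difference between the libraries in these ratios was not tested.

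**Figure D5:**
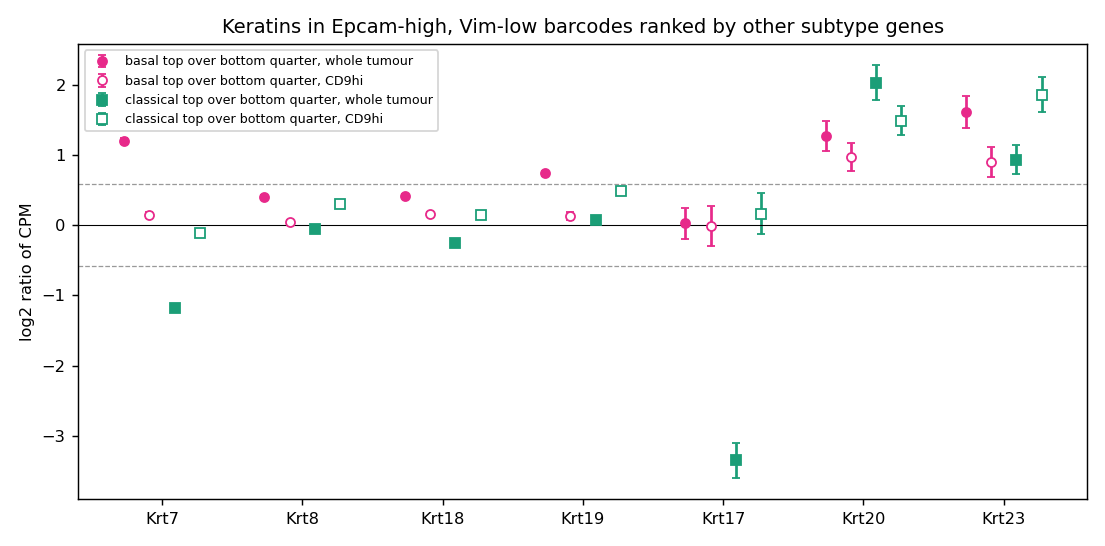
Log2 ratio of CPM (vertical) of 7 keratins (horizontal) between the top and bottom 25% of Epcam-high, Vim-low, ungated cells ranked by the summed basal list (circles) or classical list (squares), in the whole tumour (filled) and CD9hi (open); bars are 95% counting intervals and dashed lines mark 1.5-fold. Krt20 and Krt23 are above 0 in all 4 comparisons, and Krt17 stands at -3.34 for the classical list in the whole tumour and near 0 in the other 3.

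Krt17 was concentrated in few cells. In the whole tumour the 10% of cells with the most Krt17 held 96.2% of its UMIs, against 27.8% for Krt18, 61.3% for Krt23 and 65.2% for Krt20. The share was 100% for Krt80, which was near the limit of measurement. At least 5 Krt17 UMIs were present in 164 whole-tumour and 82 CD9hi cells, 158 and 82 of them ungated, and these were compared with ungated cells without any, as a description made after seeing the data. The Krt17 cells of the whole tumour had 7.30 CPM of Tff1 against 987 CPM, 40.3 CPM of Agr2 (a classical gene) against 257 CPM, and 9.21 CPM of Ly6d (a basal-list gene) against 95.3 CPM. They had more of the stratified-type keratins Krt14 (15.6 against 5.44 CPM) and Krt16 (46.4 against 22.8 CPM), and more Krt7 (2943 against 1639 CPM) and Krt19 (2272 against 1355 CPM). Krt8 (4114 against 3008 CPM) and Krt18 (5148 against 4254 CPM) were higher too. Between these whole-tumour cells Epcam was at 3229 against 1991 CPM and Vim at 965 against 1292 CPM, and their part was not tested. Gabrp, a GABA receptor subunit, was at 123 against 65.5 CPM, and Areg at 295 against 506 CPM. In CD9hi the Krt17 cells also had less Tff1 (1.59 against 28.8 CPM), Tff2 (2.12 against 62.7 CPM) and Agr2 (4.77 against 21.0 CPM), from 3 to 9 UMIs of each in these cells. The classical gene Ctse was higher in them, at 500 against 245 CPM (log2 1.03, 0.93 to 1.12, 942 UMIs). Tspan8, of the same list, was close, at 219 against 239 CPM. Vim was at 2747 against 4926 CPM between these CD9hi cells, and its part was not tested. Krt14 went the other way from the whole tumour there, at 3.18 against 7.80 CPM (6 UMIs, log2 -1.18, -2.74 to -0.17), and Krt16 was at 17.5 against 9.45 CPM. The Krt17 cells of CD9hi had more Epcam, at 3728 against 979 CPM, Krt19 at 1195 against 329 CPM, Krt20 at 126 against 37.7 CPM and Gabrp at 52.0 against 12.6 CPM. Krt20 went the other way in the whole tumour, at 29.2 against 52.5 CPM (log2 -0.84, -1.16 to -0.54). Krt23 was also lower there, at 41.0 against 65.5 CPM, and was close in CD9hi, at 44.6 against 39.9 CPM. Divided instead by Gabrp among ungated cells with Vim under 2500 CPM and enough depth, cells with a Gabrp UMI after thinning had 114 against 76.0 CPM of Krt17 in the whole tumour (log2 0.59) and 27.2 against 44.4 CPM in CD9hi (log2 -0.70), whereas Krt19 was higher with Gabrp in both (log2 0.51 and 0.94).

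Likeness over cells was described by Pearson's r of log2(counts per 10000 + 1) across kept cells, taking for each member the lower r of the 2 libraries over 4893 genes; the cells share library and depth, and no p is given. Krt8 and Krt18 were each other's closest gene of all (r 0.81 in the whole tumour and 0.75 in CD9hi). Krt7 was closest to Epcam (0.69 and 0.84) and then to Krt18, Sdc1, Anxa3 and Krt19. Krt19 was closest to Cldn7, a claudin of epithelial tight junctions (0.59 and 0.63), and then to Krt7, Krt8, Epcam and Spint2. For the sparse chains the values were low, with Ctse for Krt20 (0.27 and 0.43) and Areg for Krt23 (0.32 and 0.25), and are not read further.

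Of the other 46 annotated keratin genes, 17 had no UMI in either library, 26 stayed under 5 CPM in both (the highest at 3.83 CPM) and 3 reached it. Krt10, a suprabasal epidermal chain, had 15.9 CPM (whole tumour) and 15.6 CPM (CD9hi). Krt16 was at 22.2 and 9.92 CPM, and Krt14, the basal-layer partner of Krt5, at 6.81 and 8.09 CPM. Krt14 was the only one of the 3 past 1.5-fold with Vim in both libraries, in opposite directions, at 13.1 CPM in Vim-high against 4.96 CPM in Vim-low cells of the whole tumour (43 UMIs in the first) and 3.77 against 29.0 CPM in CD9hi.

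The partners and regulators of keratin filaments were read from lists of their own. Of 15 desmosome and plakin genes, which anchor keratins at cell junctions, 13 were measured, and 10 of these were at least 1.5-fold lower in Vim-high than Vim-low cells of CD9hi and 1 as much higher (16.9% and 8.57% of all measured genes were), with a median log2 ratio of -1.21 beside -0.09 over all genes. Pkp3, a desmosomal plaque protein, went from 65.3 to 7.78 CPM and Dsc2, a desmosomal cadherin, from 14.2 to 2.64 CPM. The cytolinkers Dst (87.7 to 153 CPM) and Plec (234 to 343 CPM), which also bind other filaments, were higher. The whole tumour had 5 of 13 lower and 3 higher (15.7% and 20.7% of all measured genes were), and the list's median was -0.35 beside 0.13. Other plaque proteins differed less than Pkp3. Jup (plakoglobin) went from 232 to 135 CPM in CD9hi (log2 -0.78) and Pkp1 from 79.1 to 64.0 CPM (log2 -0.31), and in the whole tumour Pkp1 was higher in Vim-high cells, going from 22.1 to 62.2 CPM. Of 10 keratin regulators, 5 of the 6 measured were lower in CD9hi Vim-high cells and 6 of 7 in the whole tumour, beside the same shares of all genes, and 1 was higher in each. Elf3, an epithelial ETS factor, went from 81.1 to 4.47 CPM in CD9hi and from 130 to 6.101 CPM in the whole tumour. Grhl2, a grainyhead factor of epithelial identity, went from 12.0 to 0.490 CPM and from 14.1 to 0.610 CPM. Klf4 was the exception, at 253 against 463 CPM in CD9hi and 226 against 468 CPM in the whole tumour. Among other intermediate filament genes Lmna, the nuclear lamin, was higher in Vim-high cells of both libraries (log2 1.14 and 1.75).

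Among cells of other types, the 15 whole-tumour barcodes that met the tuft gate, chemosensory cells of the duct, had 13762 CPM of Krt18 and 9014 CPM of Krt8, above every Vim bin, with 173 CPM of Krt7 and 67.6 CPM of Krt19. Islet-gated barcodes (17) had 1350 CPM of Krt18 and 1205 CPM of Krt8. In the islet-gated class the share of these UMIs that came from free RNA was not tested.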

How the data were processed

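Both libraries were made with a droplet kit that counts transcript 3′ ends, per the labels' protocols. Per the file headers, each deposited matrix holds integer UMI counts, without normalization by the authors. The submitters' processing notes name GRCm39 and Cell Ranger 7.0.0, while the matrix headers name version 6.1.2. The treatment of intronic reads is not given in the sources used here.

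From these counts, barcodes were kept at 500 or more genes, 1000 or more UMIs and no more than 20% mitochondrial UMIs (2550 of 3082 and 5092 of 5500; 48287984 and 120451299 UMIs were deposited in all). Levels were CPM of summed UMIs with exact Poisson intervals, and ratios were log2 with a pseudocount of 0.5 and an exact conditional binomial interval. Shares carried exact Clopper-Pearson intervals, and a count of 0 was taken to allow up to 3 counts. All intervals cover counting error only. Cell type gates needed at least 3 detected markers and a summed level of 50000 CPM (acinar), 20000 CPM (islet) or 1000 CPM (others). The lists tested were acinar, islet, macrophage, immune, endothelial, fibroblast, pericyte, mesothelial, Schwann, tuft and ductal markers; the endothelial, Schwann and mesothelial gates held 0 to 2 barcodes. Doublets were scored with Scrublet in scanpy 1.11.5; its automatic threshold marked 0.549% of whole-tumour and 0 CD9hi barcodes and had not worked in CD9hi, so the 63 and 224 highest scores were taken as doublets and removed in an alternative only. Named were the 8 keratins, other keratins at 5 CPM or more, the 5 genes most like each member with at least 20 CPM in both libraries, and the extreme genes of each list; further genes were named after their values were seen. The members and lists were chosen with earlier results of these data known. Calculations used Python 3.11.15, numpy 2.4.6, scipy 1.17.1 and pandas 2.3.3, and ratios were checked on simulated counts. Alternatives varied the barcode filter, doublets, gates, scaling, fold threshold, Vim cuts, cells ranked and thinning depth. A further allele of the model is not reported here.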

Additional observations from a re-analysis of the deposited data

Results flagged for a closer look

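Along the classical list, 2 keratins went opposite ways in the 2 libraries, and the difference was not tested because each library is 1 sample. Krt17 had a log2 ratio between the top and bottom 25% of cells of -3.37 in the whole tumour and 1.77 in CD9hi, where Epcam moved with it. Krt7 had a log2 ratio of -1.04 in the whole tumour and 3.04 in CD9hi. Outside the keratins, the added reporter sequence TdTomato had 6 UMIs in the whole tumour and 10 in CD9hi, above the limit that a count of 0 allows.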

How the results depend on the processing

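Of 82 recomputed counts, 73 stayed within 1.5 times the value reported and 9 did not. At a 2-fold threshold the keratins lower in CD9hi numbered 2 in place of 4, those lower in Vim-high whole-tumour cells 1 in place of 3, and those higher with the classical list in the whole tumour 1 in place of 2. Basal-list keratins in the whole tumour numbered 7 in place of 4 without a filter on barcodes and also 7 when all kept barcodes were ranked. Ranked by a Gabrp UMI they numbered 1 in the whole tumour and 1 in CD9hi. Among Epcam-high cells alone, chosen after seeing the data, 2 of 7 remained for each list in CD9hi. Of 532 recomputed values of single keratins, 7 changed the direction of a ratio that was past 1.5-fold; ratios under 1.5-fold also changed sign, among them Krt7 with Vim in the whole tumour (-0.14, up to 0.38) and Krt8 with the basal list there (0.45, down to -0.22). Krt17 between the top and bottom 20% of Vim in the whole tumour had a log2 ratio of 0.88 against -1.50. Among Epcam-high CD9hi cells, Krt17 with the basal list came to -0.0175 against 1.84 and Krt7 with the classical list to -0.11 against 3.04. By Gabrp, Krt20 and Krt23 in the whole tumour came to -0.67 and -0.0163, and Krt17 and Krt20 in CD9hi to -0.70 and -0.54. The causes were not tested. Median-of-ratios scaling, which moves all genes by up to 0.22 on the log2 scale, turned no member that was past 1.5-fold, and among the others turned Krt18 with the classical list in the whole tumour, from -0.19 to 0.0319. No paired analysis was possible because each group had 1 library, and none could be left out. Depth limits Krt80, at 281 and 450 UMIs, and background detection rests on 20 immune-gated barcodes.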
